A study of Homo sapiens with 33 samples.

Results

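This comparison set UM-UC-3 bladder cancer cells that had lost GABPB1 against UM-UC-3 control cells, gene by gene, in bulk RNA sequencing. The genes described are those entries of the authors' deposited table for the UM-UC-3 total knockout whose mean normalized count reached 10. That rule kept 13309 of 13310 entries. The entry left out, CCDC85A, had a mean of 8.78 per the authors' deposited table, and the lowest mean kept was 22.9.

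UM-UC-3 is an established line labelled as bladder, and it contributed 13 of the 33 libraries of the series. Knockout cells were single-cell clones edited with Cas9 and guide RNAs, so each clone also carries whatever else distinguishes it from its parent. Group B1KO held 4 libraries from 4 clones that lacked exons 2 to 9 of GABPB1, and group B1X2KO held 5 libraries from 4 clones that lacked exon 2, where 1 clone gave 2 libraries. The authors combined both as the total knockout, 9 libraries from 8 clones. Whether the fit took the 2 libraries of 1 clone as independent is not known, and if it did, the printed errors and p-values are too small. Controls were 3 libraries from 3 clones edited at ROSA26, a safe-harbour locus, and 1 library of unedited parental cells. The deposited comparison is named as knockout over parental, but the sources used here do not say which of these controls were fitted, and every value may rest on 1 control library. Exon 2 and exons 2 to 9 deletions cannot be told apart in these values.

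The data are 1 fitted log2 fold change of knockout over control per gene, with a standard error (SE) and an adjusted p. A gene is called higher or lower here where the authors' adjusted p is under 0.05, and ± stands for the SE throughout. Depth per sample is unknown, and values of single libraries were not used here, which leaves the SE as the only view of the spread between clones. Its median was 0.18 log2 units. Since RNA was taken from cultures in bulk, fewer cells of a kind and less RNA per cell cannot be told apart.

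GABP is a transcription factor made of GABPA, an ETS-family protein that contacts DNA, and a B subunit, GABPB1 or GABPB2, that carries the activating part. It binds promoters at the short purine-rich ETS motif, and its known targets include many genes of mitochondria, of ribosome and RNA machinery and of the cell cycle. In bladder cancer it is best known for activating the mutated TERT promoter. TERT was called lower here (-1.77 ± 0.63, adjusted p 0.0208, mean 441 per the authors' deposited table). It lost that call with every SE taken 1.5 times larger. Known GABP targets are mostly genes that every cell uses.

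The edited gene was checked first. GABPB1L, the long form, had a log2 fold change of -12.60 ± 0.71 (adjusted p 1.32e-66) per the authors' deposited table, while GABPB1L-DEX2, a name that marks transcripts without exon 2, had 11.82 ± 1.46 (adjusted p 1.98e-13). Where 1 group is near 0, as here, the size of the change has no fold meaning. The remaining GABP subunits rose, GABPA by 1.43 ± 0.19 and GABPB2 by 2.49 ± 0.20 per the authors' deposited table (adjusted p 6.25e-12 and 5.22e-32). GABPB1-AS1, an antisense RNA of the same locus, was not called (-0.43 ± 0.32, adjusted p 0.326 per the authors' deposited table).

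Among called entries with a mean of at least 100, a neighbour of the edited gene had the largest fitted log2 change. With controls near 0 its size has no fold meaning either, so its rank says little. HDC encodes histidine decarboxylase, the enzyme that makes histamine, and is normally restricted to mast cells, basophils and a few other cell types. It lies on chromosome 15 at 50241947 to 50266026 (hg38), 9.37 kb beyond the end of GABPB1 (50275392 to 50355408) and on the same, minus, strand. HDC had a mean of 630.3 normalized counts and a log2 fold change of 25.81 ± 2.83 (adjusted p 4.06e-17) per the authors' deposited table, which means that it was near 0 in the controls. Worked out from mean and fold change, its knockout level was 700.3 normalized counts if 1 control library was fitted and 910.4 if 4 were. How these counts spread over the 9 knockout libraries is not shown by the values. In A-375 melanoma cells, the other line of the series, HDC had 8.25 ± 1.86 in the authors' deposited table for the same kind of knockout (adjusted p 0.000536), so the rise was seen in clones of both lines. TMEM110, a regulator of endoplasmic reticulum contacts, came next by fitted size at 25.00 ± 3.29 per the authors' deposited table. Its reads overlap those of a read-through entry, TMEM110-MUSTN1 (-0.28 ± 0.28, adjusted p 0.464 per the authors' deposited table), so its value is uncertain.

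Other genes within 500 kb of GABPB1 behaved differently from HDC. USP8 and TRPM7, on its other side, were not called, with log2 fold changes of 0.13 ± 0.17 and 0.09 ± 0.23 per the authors' deposited table. SPPL2A, an intramembrane protease gene 347 kb away, fell by 1.87 ± 0.24 log2 units (adjusted p 1.61e-12) per the authors' deposited table, and it was also lower in A-375 (-1.53 ± 0.49, adjusted p 0.0229). Whether the edit itself altered transcription of these neighbours was not tested.

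Of the 13309 entries, 4145 were called (31.1%), with 2260 higher (17.0%) and 1885 lower (14.2%). Most calls were small. Among the higher calls 891 were under 1.5-fold, 753 were between 1.5-fold and 2-fold, and 616 were at least 2-fold (4.63% of all entries). Of the lower calls 958 were under 1.5-fold, 648 were between 1.5-fold and 2-fold, and 279 were at least 2-fold (2.10% of all entries). More of the higher calls were large, since 124 higher calls and 33 lower calls passed 4-fold. The mean covers more knockout than control libraries, so a gene present only in controls needs a higher level to reach the same mean. The part of this in the balance of large changes was not tested. The median log2 fold change of all entries was 0.03. The counts depend on the SE, since with every SE taken 1.5 times larger 550 entries would be called higher and 509 lower.

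**Figure D1:**
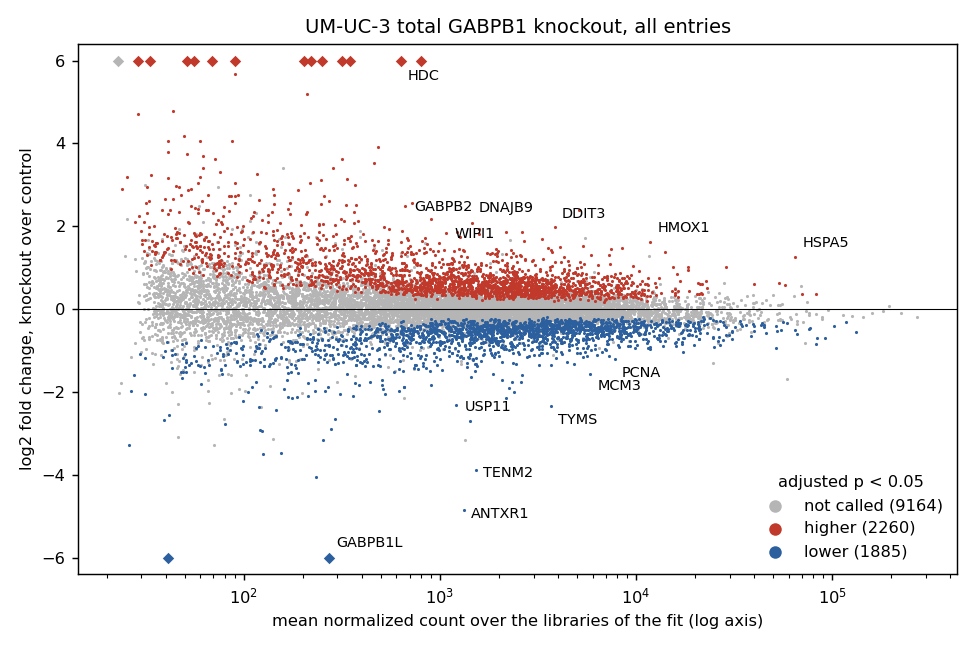
Mean normalized count (x, log axis) against log2 fold change of knockout over control (y) for the 13309 entries, coloured by call, with changes beyond 6 either way drawn as diamonds at the edge. The 2260 higher calls reach larger changes than the 1885 lower calls, and lower calls become more frequent to the right.

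Lower calls became more frequent with abundance. The share called lower climbed from 6.80% in the quintile of entries with the lowest means to 20.9% in the quintile with the highest, whereas the share called higher was 16.3% and 12.1% in the same quintiles. It also followed transcript length. Among 11764 protein-coding genes with a length in GENCODE, 22.2% of the shortest quintile (longest transcript of 177 to 2043 bases) were called lower and 10.7% higher. In the longest quintile (5956 to 109224 bases) 10.2% were lower and 20.2% higher. Several of the lists below hold short genes. The part of length in their counts was not tested.

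Promoters of genes that fell held the ETS motif more often than other promoters. The search used CCGGAAGT on either strand, in windows from 250 bases before to 50 bases after a RefSeq start (GRCh38.p14), and 10466 of 13309 entries matched a gene with at least 1 window. Of all 35116 windows in the RefSeq table, 4.14% held the motif. The promoters below are from genes with a match, a mean of at least 100 and a change of at least 2-fold: the 5 lower ones with the smallest adjusted p, followed by the 2 such higher ones. They are shown because they let the position and surroundings of the match be compared. Each is written 5′ to 3′ along its gene, and the capitals mark the match.
USP11: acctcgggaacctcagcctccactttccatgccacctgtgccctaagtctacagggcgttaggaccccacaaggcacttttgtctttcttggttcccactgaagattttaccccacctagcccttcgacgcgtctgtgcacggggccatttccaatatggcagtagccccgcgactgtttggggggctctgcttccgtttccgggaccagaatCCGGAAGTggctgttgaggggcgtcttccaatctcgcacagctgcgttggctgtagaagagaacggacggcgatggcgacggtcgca
HDHD2: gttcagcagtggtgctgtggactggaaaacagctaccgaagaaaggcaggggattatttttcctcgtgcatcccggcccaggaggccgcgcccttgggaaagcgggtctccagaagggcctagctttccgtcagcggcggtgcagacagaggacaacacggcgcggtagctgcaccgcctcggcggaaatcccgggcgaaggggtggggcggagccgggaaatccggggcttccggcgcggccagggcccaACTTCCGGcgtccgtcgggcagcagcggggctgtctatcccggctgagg
ATP13A1: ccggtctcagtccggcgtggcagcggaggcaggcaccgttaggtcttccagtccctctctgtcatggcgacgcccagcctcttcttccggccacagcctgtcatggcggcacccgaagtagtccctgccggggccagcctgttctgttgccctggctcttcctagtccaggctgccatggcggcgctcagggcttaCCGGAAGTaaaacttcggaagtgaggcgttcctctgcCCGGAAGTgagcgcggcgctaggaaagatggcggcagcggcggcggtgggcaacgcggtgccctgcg
FIS1: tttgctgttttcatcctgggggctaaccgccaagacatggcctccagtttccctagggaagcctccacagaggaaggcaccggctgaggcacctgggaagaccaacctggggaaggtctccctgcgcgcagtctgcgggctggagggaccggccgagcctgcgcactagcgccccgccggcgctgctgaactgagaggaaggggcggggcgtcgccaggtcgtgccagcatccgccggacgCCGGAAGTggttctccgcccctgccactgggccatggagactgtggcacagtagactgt
LYPLA2: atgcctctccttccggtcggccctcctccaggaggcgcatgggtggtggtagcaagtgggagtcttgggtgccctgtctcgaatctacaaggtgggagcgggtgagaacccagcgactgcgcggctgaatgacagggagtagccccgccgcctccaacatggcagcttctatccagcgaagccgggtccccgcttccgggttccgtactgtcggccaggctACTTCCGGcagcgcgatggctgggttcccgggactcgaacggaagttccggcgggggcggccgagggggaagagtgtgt
DDIT3: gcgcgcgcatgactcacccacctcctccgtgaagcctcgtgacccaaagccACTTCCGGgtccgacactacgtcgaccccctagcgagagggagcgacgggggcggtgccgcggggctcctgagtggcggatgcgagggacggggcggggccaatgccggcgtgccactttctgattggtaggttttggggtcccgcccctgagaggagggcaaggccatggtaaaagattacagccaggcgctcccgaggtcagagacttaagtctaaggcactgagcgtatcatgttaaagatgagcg
DNAJB9: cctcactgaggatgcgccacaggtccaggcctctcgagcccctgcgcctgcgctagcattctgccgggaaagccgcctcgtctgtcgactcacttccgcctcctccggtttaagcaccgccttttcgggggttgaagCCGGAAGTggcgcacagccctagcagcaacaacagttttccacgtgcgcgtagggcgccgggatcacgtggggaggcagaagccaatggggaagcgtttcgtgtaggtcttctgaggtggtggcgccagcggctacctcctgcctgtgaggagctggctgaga

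On GRCh38.p14 these windows are chrX:47232759-47233058 (plus strand) for USP11, chr18:47150451-47150750 (minus) for HDHD2, chr19:19663627-19663926 (minus) for ATP13A1 and chr7:101245032-101245331 (minus) for FIS1. The other windows are chr1:23790895-23791194 (plus) for LYPLA2, chr12:57520465-57520764 (minus) for DDIT3 and chr7:108569624-108569923 (plus) for DNAJB9. Among the lower genes the matches lay close to the start, at position -37 in USP11, 1 in HDHD2, -9 in FIS1 and -29 in LYPLA2, counted from the annotated start to the first base of the match. ATP13A1 held 2 copies, at -54 and -17. The matches of these 2 higher genes lay further out, at -199 in DDIT3 and -113 in DNAJB9. They do not stand for higher genes in general. Over all matches the median position was -36 in lower, -42 in higher and -37 in uncalled genes. From 100 bases before to 50 bases after the start lay 82.7% of matches in lower genes, 71.1% in higher genes and 77.7% in uncalled genes. A match is only a description of the letters in these windows.

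These 5 lower genes have varied jobs. USP11 is a deubiquitinase with roles in DNA repair, and its log2 fold change was -2.33 ± 0.16 (adjusted p 1.9e-43) per the authors' deposited table. HDHD2, a member of the haloacid dehalogenase hydrolase family, fell by 1.47 ± 0.15 log2 units, and ATP13A1, an endoplasmic reticulum ATPase that extracts mistargeted membrane proteins, fell by 1.10 ± 0.12, both per the authors' deposited table (adjusted p 1.36e-18 and 4.35e-18). FIS1, a mitochondrial outer-membrane protein of organelle fission, fell by 1.19 ± 0.14, and LYPLA2, a thioesterase that removes palmitate from proteins, fell by 1.84 ± 0.22 (adjusted p 4.96e-15 and 7.81e-14 per the authors' deposited table).

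By call, 282 of 1538 lower genes held CCGGAAGT (18.3%, 95% Wilson interval 16.5 to 20.3). Over all matched genes the motif was present in 1049 of 10466 (10.0%). It was present in 656 of 7122 genes not called (9.21%, 8.56 to 9.90) and in 111 of 1806 higher genes (6.15%, 5.13 to 7.35). The intervals cover counting error over genes only, and they do not overlap. Read the other way, 26.9% of the 941 genes with 1 copy were called lower and 10.9% higher, against 13.3% lower and 18.0% higher among the 9417 genes with none. A second copy made no visible difference, since 29 of 108 such genes were lower (26.9%). Among genes with 1 window the shares were 17.4% of lower, 9.43% of uncalled and 6.59% of higher genes.

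The motif share fell stepwise from moderate falls to rises. It was 18.3% among genes with a log2 change of -1 to -0.5, 11.5% from -0.5 to 0, 8.77% from 0 to 0.5 and 4.48% from 0.5 to 1. Beyond a 4-fold fall the share was 9.09%, but that bin held 33 genes and its interval ran from 3.14% to 23.6%. Motif genes were called lower more often in each quintile of mean normalized count, although the gap was small at the top. In the lowest quintile 23.1% of motif genes and 7.08% of other genes were lower, and in the highest quintile 25.4% and 20.9%. The gap was also present in each tertile of promoter GC content, with 26.2% against 12.0% lower in the GC-poorest tertile and 24.4% against 12.4% in the GC-richest.

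**Figure D2:**
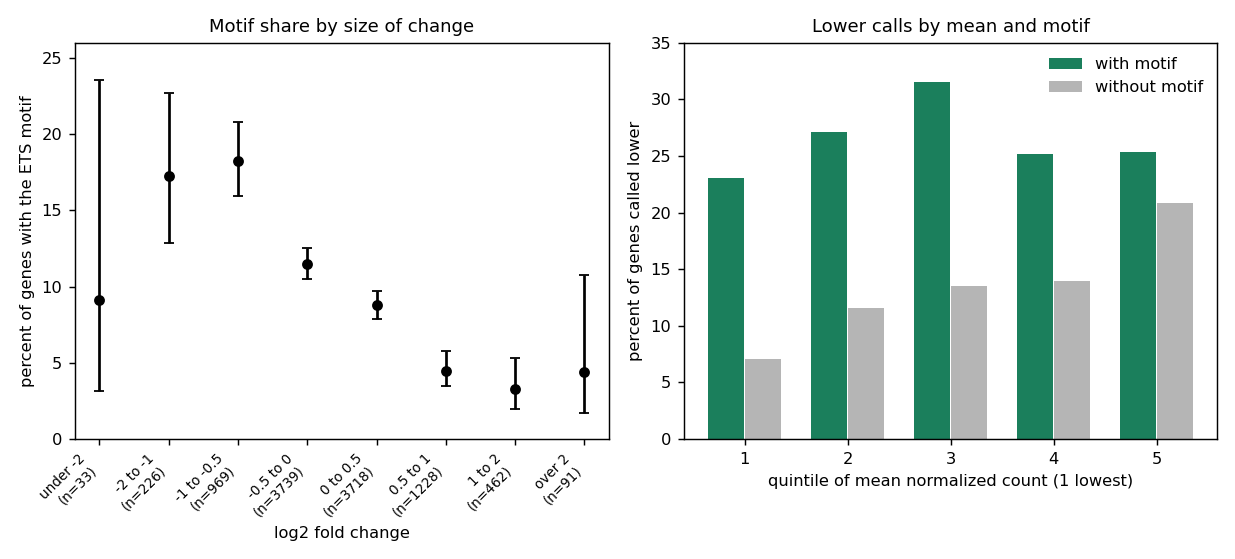
Left, percent of genes whose promoter window holds the ETS motif (y) by log2 fold change (x), with 95% Wilson intervals and the number of genes. Right, percent of genes called lower with and without the motif (y) by quintile of mean normalized count (x), where the motif bar is the taller in each quintile, by 23.1% against 7.08% in the lowest and 25.4% against 20.9% in the highest.

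Gene pairs that share a promoter region gave a further view, since GABP is known for serving bidirectional promoters. Of 480 pairs of protein-coding genes on opposite strands with starts within 1000 bases and pointing apart, both genes were lower in 25, both higher in 12 and the directions were opposite in 23. Genes in such pairs were called lower in 20.4% of 954 cases, against 13.9% of 10832 other protein-coding genes. The partner of a lower gene was itself lower in 25.6% of 195 cases, so a fall was usually not shared. TCP1, a subunit of the cytosolic chaperonin, and MRPL18, of the mitochondrial ribosome, start 63 bases apart and were both lower (-0.53 ± 0.06 and -0.61 ± 0.10 per the authors' deposited table, adjusted p 1.25e-15 and 8.7e-09).

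Genes of DNA replication were among the groups with the largest share of lower calls. Of 26 genes that license and unwind origins, 16 were lower and 0 higher, with a median log2 change of -0.75. Of 36 polymerase and fork genes 24 were lower and 1 higher, with a median of -0.65. GINS1 and GINS2, subunits of the helicase complex that opens the fork, fell by 1.12 ± 0.20 and 1.72 ± 0.31 in log2 units, per the authors' deposited table (adjusted p 1.19e-06 and 1.36e-06). RFC4, of the complex that loads the sliding clamp, fell by 0.87 ± 0.08 (adjusted p 6.02e-24), and PCNA, the clamp itself, by 1.20 ± 0.25 (adjusted p 1.88e-05), per the authors' deposited table. DBF4, which activates the licensing kinase, was not called (0.16 ± 0.18, adjusted p 0.528 per the authors' deposited table). Few of these promoters held the motif: 1 of 21 licensing genes with a window (GINS3) and 2 of 32 fork genes (POLA1 and RFC4).

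Of 31 enzymes that supply nucleotides 12 were lower and 2 higher. Thymidylate synthase, TYMS, which makes the thymine nucleotide, fell by 2.35 ± 0.25 (adjusted p 2.69e-18), and ADSL, a purine synthesis enzyme, by 1.33 ± 0.16 (adjusted p 9.5e-14), in log2 units, per the authors' deposited table. TK1 and DTYMK, thymidine and thymidylate kinases, had -1.29 ± 0.29 and -0.97 ± 0.18 per the authors' deposited table (adjusted p 0.00011 and 2.88e-06). IMPDH2, the abundant enzyme at the start of guanine nucleotide synthesis, was not called (-0.09 ± 0.14, adjusted p 0.673 per the authors' deposited table).

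Of 46 cyclins, kinases and inhibitors 13 were lower and 3 higher. MYBL2 and E2F2, factors that drive S phase and G2 genes, fell by 1.35 ± 0.25 and 1.31 ± 0.24 in log2 units, per the authors' deposited table (adjusted p 1.29e-06 and 2.18e-06). Among the 3 that rose were 2 genes known to restrain the cycle: CDKN1B, which encodes the p27 inhibitor, by 0.71 ± 0.15 and RBL2, a retinoblastoma-family repressor, by 0.44 ± 0.11 per the authors' deposited table (adjusted p 3.03e-05 and 0.000681). CCND1 was not called (-0.22 ± 0.17, adjusted p 0.324 per the authors' deposited table). Of 42 spindle and segregation genes 15 were lower and 1 higher, led by the kinase NEK9 (-1.59 ± 0.22, adjusted p 4.67e-11) and the gamma-tubulin anchor NEDD1 (-1.11 ± 0.19, adjusted p 1.58e-07) per the authors' deposited table.

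Histone genes divided into a set that fell and a set that rose, 6 of 21 each. H2AFX and H2AFZ, variant histones expressed with proliferation, fell by 1.08 ± 0.18 and 1.03 ± 0.18 in log2 units, per the authors' deposited table (adjusted p 8.01e-08 and 7.31e-07). H1F0, a linker histone typical of resting cells, rose by 1.06 ± 0.19, and HIST2H2BE, a histone gene known to give polyadenylated RNA, by 1.64 ± 0.29 per the authors' deposited table (adjusted p 4.63e-07 and 5.53e-07). Targets of p53 showed no such lean, with 3 of 27 higher and 3 lower, both below the shares over all entries.

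**Figure D3:**
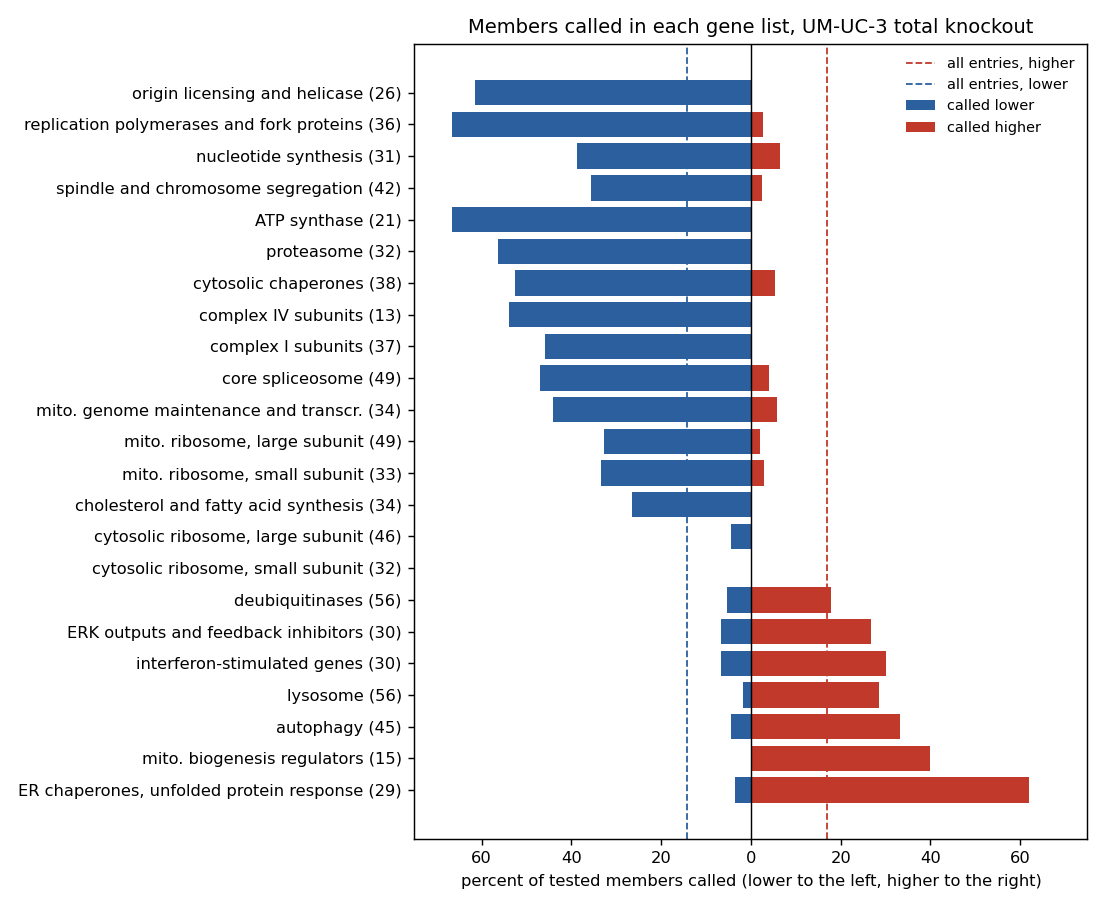
Percent of tested members called lower (left) and higher (right) for 23 gene lists, with the number tested in parentheses and dashed lines at the shares over all entries (14.2% lower, 17.0% higher). Replication and ATP synthase lists reach furthest to the left, and the endoplasmic reticulum chaperone list furthest to the right.

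Nuclear genes of the respiratory chain were lower in part, and those of ATP synthase most often. Of 21 ATP synthase genes 14 were lower and 0 higher, and all 21 had a log2 change below 0 (median -0.42). USMG5, a small subunit that links ATP synthase dimers, fell by 1.08 ± 0.14 (adjusted p 1.67e-12), and ATP5J, of the stalk, by 0.69 ± 0.13 (adjusted p 2.28e-06), in log2 units, per the authors' deposited table. ATP5G2, of the membrane ring, was not called (-0.23 ± 0.16, adjusted p 0.261 per the authors' deposited table). Of 13 complex IV subunits 7 were lower and 0 higher, and of 37 complex I subunits 17 and 0. COX6A1 had -0.75 ± 0.18 and NDUFC2 -0.75 ± 0.14 per the authors' deposited table (adjusted p 0.000336 and 3.7e-06). These are short genes, with a median longest transcript of 1256 bases for complex I and 1098 for complex IV.

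Part of the machinery that expresses the mitochondrial genome was lower. Of 49 large-subunit genes of the mitochondrial ribosome 16 were lower and 1 higher, and of 33 small-subunit genes 11 and 1. Of 31 mitochondrial aminoacyl-tRNA synthetases and translation factors 6 were lower and 5 higher, close to the shares over all entries. MRPL33 and MRPL16 fell by 1.12 ± 0.16 and 0.98 ± 0.13 in log2 units, per the authors' deposited table (adjusted p 3.43e-10 and 8.67e-12). Of 34 genes that maintain and transcribe mitochondrial DNA 15 were lower and 2 higher, although the median was -0.14. PRIMPOL, a primase-polymerase, fell by 0.78 ± 0.15 (adjusted p 3.38e-06), and C10orf2, the helicase Twinkle, by 0.57 ± 0.12 (adjusted p 5.63e-05), in log2 units, per the authors' deposited table. Large-subunit promoters held the motif in 10 of 42 cases (23.8%, against 10.0% of all matched genes), and 8 of those 10 genes were lower. ATP synthase promoters held it in 4 of 16, and all 4 (USMG5, ATP5J, ATP5H and ATP5A1) were lower. Other mitochondrial lists varied. The motif was present in 8 of 35 promoters for protein import (22.9%) and 4 of 12 for complex III (33.3%). It was present in only 2 of 32 for complex I subunits (6.25%) and 3 of 32 for the small subunit of the mitochondrial ribosome (9.38%). For iron-sulphur, haem and ubiquinone synthesis it was 1 of 30 (3.33%). Among genes with the motif, 1 of 8 for protein import and 1 of 4 for complex III were lower. For complex IV assembly 3 of 6 were, and for genome maintenance and transcription 4 of 7.

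Cofactor synthesis in mitochondria had single large changes without a shift of its list, in which 6 of 36 were lower and 4 higher. PDSS1, which builds the tail of ubiquinone, fell by 2.10 ± 0.28 (adjusted p 1.5e-11), and NFS1, the sulphur donor of iron-sulphur clusters, by 1.25 ± 0.16 (adjusted p 3.25e-13), in log2 units, per the authors' deposited table. COQ10B, a ubiquinone-binding protein, rose by 0.97 ± 0.15 per the authors' deposited table (adjusted p 1.54e-08). Of 26 genes of the TCA cycle and pyruvate dehydrogenase 5 were higher and 1 lower, with a median of -0.06, and the share called higher was close to that over all entries.

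Regulators known to promote mitochondrial biogenesis rose in 6 of 15 cases, and 0 were lower. PRKAA2 and PRKAA1, the catalytic subunits of the energy sensor AMPK, had 0.92 ± 0.17 and 0.72 ± 0.21 per the authors' deposited table (adjusted p 2.95e-06 and 0.00327). The deacetylase SIRT1 rose by 0.86 ± 0.21, the cAMP-responsive factor CREB1 by 0.81 ± 0.17 and the lysosomal and pigment-cell factor MITF by 1.47 ± 0.30 per the authors' deposited table (adjusted p 0.000358, 6.33e-05 and 2.37e-05). PPRC1, a coactivator of the same family as PGC-1, was not called (-0.12 ± 0.12, adjusted p 0.44 per the authors' deposited table).

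Proteasome and cytosolic chaperone genes were often lower, while chaperones of the endoplasmic reticulum were often higher. Of 32 proteasome genes 18 were lower and 0 higher (median -0.30), and of 38 cytosolic chaperone genes 20 were lower and 2 higher (median -0.31). PSMC2, an ATPase of the proteasome cap, fell by 0.83 ± 0.12 and PSMB1, of its core, by 0.76 ± 0.12 in log2 units, per the authors' deposited table (adjusted p 1.57e-09 and 4.47e-09). AHSA1, which activates HSP90, and HSPA8, the constitutive HSP70, had -0.84 ± 0.14 and -0.51 ± 0.12 per the authors' deposited table (HSPA8 adjusted p 0.00019, AHSA1 1.65e-07).

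Of 29 endoplasmic reticulum chaperone and unfolded protein response genes 18 were higher and 1 lower, with a median of 0.57. HSPA5, the main chaperone of that compartment (BiP), had a mean of 64877 normalized counts and rose by 1.25 ± 0.26 (adjusted p 2.19e-05) per the authors' deposited table. DNAJB9, its co-chaperone, rose by 2.09 ± 0.27 and ERO1B, which drives disulphide formation, by 1.89 ± 0.28 per the authors' deposited table (adjusted p 3.26e-12 and 7.09e-10). The stress sensor ERN1 rose by 1.11 ± 0.20 and the sensor EIF2AK3 by 0.81 ± 0.17, and SEL1L, of the degradation complex, by 1.03 ± 0.19, all per the authors' deposited table (adjusted p 9.36e-07, 4.37e-05 and 1.56e-06). HYOU1 had 0.62 ± 0.27 and was not called, as was P4HB (0.16 ± 0.14), per the authors' deposited table.

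DDIT3, the stress factor CHOP, rose by 1.98 ± 0.25 (adjusted p 4.91e-13) per the authors' deposited table, but the wider set of ATF4 targets did not rise with it: 4 of 30 were higher and 7 lower. Enzymes that make serine and asparagine fell. PHGDH had -1.04 ± 0.17, PSAT1 -0.94 ± 0.17 and ASNS -0.87 ± 0.14 per the authors' deposited table (adjusted p 2.33e-08, 1.38e-06 and 5.74e-08). The glutamine carrier SLC1A5 fell by 0.71 ± 0.14 log2 units (adjusted p 1.18e-05), and CTH, of cysteine synthesis, rose by 0.98 ± 0.22 (adjusted p 0.000112), per the authors' deposited table. ATF4, added after its value was seen, was not called at the RNA level (0.06 ± 0.15, adjusted p 0.806 per the authors' deposited table).

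**Figure D4:**
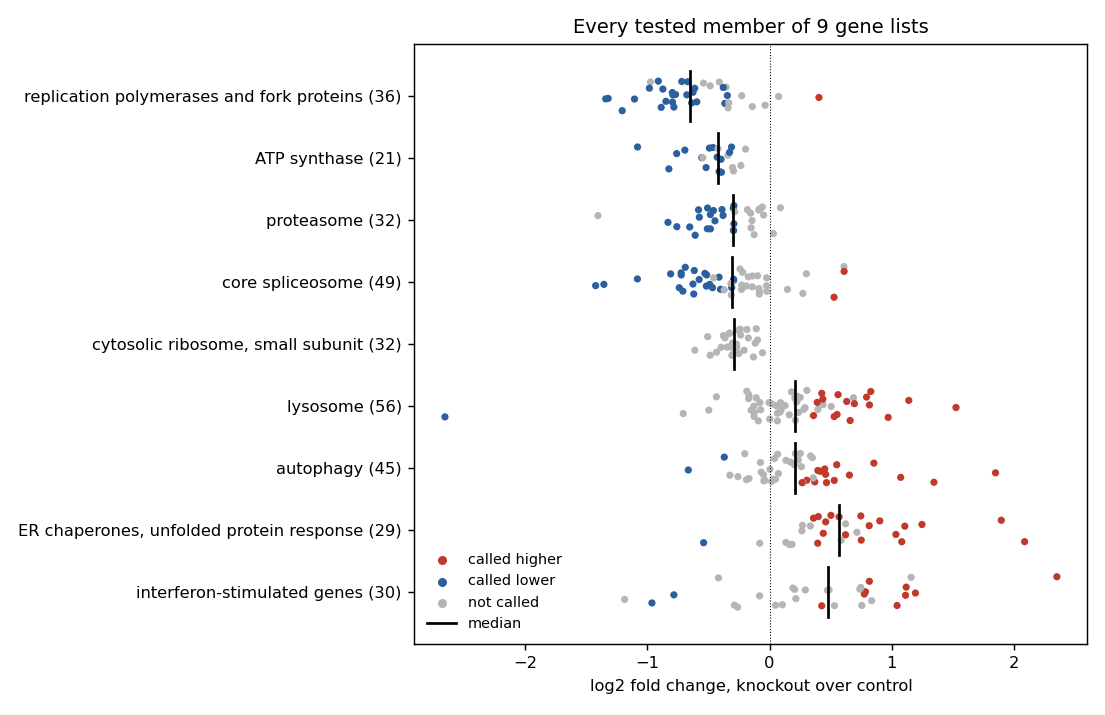
Log2 fold change (x) of each tested member of 9 gene lists (y), coloured by call, with a black bar at the list's median. Replication and ATP synthase genes lie left of 0 with few exceptions, small-subunit genes of the cytosolic ribosome cluster narrowly below 0 without a call, and endoplasmic reticulum chaperones spread to the right, up to 2.09 for DNAJB9.

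RNA processing genes were often lower. Of 49 core spliceosome genes 23 were lower and 2 higher (median -0.31). SNRPB, SNRPD1 and SNRPD3, parts of the ring carried by spliceosomal RNAs, fell by 0.71 ± 0.14, 0.74 ± 0.15 and 0.69 ± 0.12 in log2 units, per the authors' deposited table (adjusted p 1.59e-05, 1.36e-05 and 6.87e-07). SLU7, a second-step factor, was one of the 2 that rose (0.61 ± 0.11, adjusted p 6.93e-07 per the authors' deposited table). Of 45 such genes with a promoter window, 15 held the motif (33.3%), and 6 of those 15 were lower.

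Cytosolic ribosomal proteins gave the narrowest distribution. Of 46 large-subunit genes 2 were lower, RPL15 and RPL6, and of 32 small-subunit genes 0 were called, although all 32 had a log2 change below 0 (median -0.29, lowest -0.61). At an unadjusted p under 0.05, 3 of the 32 were lower, and 3 passed the authors' q-value. Their SE was large for their abundance, as in RPS6, which had -0.28 ± 0.21 at a mean of 65889 per the authors' deposited table. Aminoacyl-tRNA synthetases of the cytosol did include calls, 8 of 23 lower and 1 higher, among them MARS (-0.89 ± 0.15, adjusted p 2.48e-07) and QARS (-0.60 ± 0.09, adjusted p 1.7e-10) per the authors' deposited table.

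More lysosome and autophagy genes were higher than lower, although most were not called. Of 56 lysosome genes 16 were higher and 1 lower, and of 45 autophagy genes 15 were higher and 2 lower, each list with a median of 0.21. GAA, which digests glycogen, rose by 0.97 ± 0.13 and MANBA, a mannosidase, by 0.82 ± 0.12 per the authors' deposited table (adjusted p 2.32e-11 and 1.45e-10). LAMP2, of the lysosomal membrane, rose by 0.83 ± 0.13 (adjusted p 3.99e-08) per the authors' deposited table. GABARAPL1, which coats autophagosomes, rose by 1.34 ± 0.19, ATG14, a subunit of the initiating lipid kinase, by 1.07 ± 0.19 and BECN1, of the same kinase, by 0.55 ± 0.11 per the authors' deposited table (adjusted p 1.14e-10, 3.63e-07 and 1.38e-05). SMPD1, acid sphingomyelinase, was the lysosome gene that fell, by 2.65 ± 0.38 log2 units (adjusted p 2.62e-10 per the authors' deposited table). Of 36 lysosome genes with a promoter window, 0 held CCGGAAGT.

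Oxidative stress and metabolism genes moved singly. HMOX1, haem oxygenase, rose by 1.61 ± 0.24 at a mean of 11758 (adjusted p 1.29e-09), and GCLC, the first enzyme of glutathione synthesis, by 0.68 ± 0.16 (adjusted p 0.000299), per the authors' deposited table, where 7 of 24 NRF2 targets were higher and 3 lower. Glycolysis and hypoxia genes went both ways, 7 of 36 higher and 9 lower. ENO1 and PKM, glycolytic enzymes, fell by 0.83 ± 0.14 and 0.59 ± 0.14 log2 units, while VEGFA and EPAS1, the hypoxia factor HIF-2 alpha, rose by 0.85 ± 0.16 and 1.01 ± 0.21, per the authors' deposited table (adjusted p 6.22e-08, 0.000413, 6.81e-06 and 3.17e-05). Of 34 cholesterol and fatty acid synthesis genes 9 were lower and 0 higher, with the master regulators SREBF1 and SREBF2 at -0.75 ± 0.17 and -0.35 ± 0.10 per the authors' deposited table (adjusted p 0.000209 and 0.00385).

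Interferon and antigen presentation genes rose in part. Of 30 interferon-stimulated genes 9 were higher and 2 lower, and of 15 antigen presentation genes 6 were higher and 2 lower. HLA-B and HLA-C, class I molecules, rose by 1.53 ± 0.33 and 0.67 ± 0.17 per the authors' deposited table (adjusted p 5.23e-05 and 0.000794). IRF9, of the interferon response complex, rose by 1.12 ± 0.23 (adjusted p 3.23e-05), whereas OAS3, an antiviral sensor, and IFITM3 fell by 0.96 ± 0.25 and 0.78 ± 0.18 log2 units (adjusted p 0.00106 and 0.00018) per the authors' deposited table. HLA genes vary between chromosomes and resemble each other, so their counts are uncertain. The class II genes CD74 and HLA-DRB1 were higher at low means of 287 and 45.1 (1.44 ± 0.39 and 1.72 ± 0.45 per the authors' deposited table, adjusted p 0.00195 and 0.00109).

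Negative feedback genes of signalling pathways were among those that rose. Of 30 ERK pathway genes, a list of outputs, feedback inhibitors and some kinases, 8 were higher (26.7%, against 17.0% of all entries). In the same list 2 were lower (6.67%, against 14.2%). DUSP4, a phosphatase that silences ERK, rose by 1.45 ± 0.31, and the RAS-pathway inhibitor SPRED1 by 0.88 ± 0.19, per the authors' deposited table (adjusted p 6.87e-05 and 8.45e-05). MAPK7, the kinase ERK5, rose by 0.63 ± 0.10 and its activator MAP2K5 fell by 1.17 ± 0.21 in log2 units, per the authors' deposited table (adjusted p 2.33e-08 and 1.02e-06). Of 23 TGF-beta and Notch genes 6 were higher and 1 lower, with the inhibitors SMAD7 and SKIL at 1.60 ± 0.32 and 1.34 ± 0.27 per the authors' deposited table (adjusted p 1.68e-05 and 1.69e-05). TGFB1 was the 1 that fell (-0.51 ± 0.13, adjusted p 0.000616 per the authors' deposited table).

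Other ETS factors, which bind the same motif, were higher in 4 of 15 cases (26.7%, against 17.0% of all entries): ETV3, ELF1, ETV1 and ELK4. In this list 0 were lower, against 14.2% of all entries. ELF1, ETV1 and ELK4 lost their call with every SE taken 1.5 times larger. ETV3, a repressor, rose by 0.71 ± 0.16 and ELF1 by 0.66 ± 0.18 per the authors' deposited table (adjusted p 0.000125 and 0.00135). ETS1, the most abundant of the list by count, was not called (0.20 ± 0.23, adjusted p 0.543 per the authors' deposited table). Of 24 genes of the CTLH ligase and cullins 5 were lower and 4 higher (median 0.05). CUL7 and its partner OBSL1, which work in 1 complex, were both lower. CUL7 fell by 1.65 ± 0.25 and OBSL1 fell by 1.36 ± 0.18 in log2 units, per the authors' deposited table (adjusted p 1.46e-09 and 2.5e-12). The ubiquitin-like modifier NEDD8 and the ring protein RBX1, which cullins need, fell by 0.89 ± 0.16 and 0.63 ± 0.14 in log2 units, per the authors' deposited table (adjusted p 1.16e-06 and 7.32e-05). CUL4B, another cullin, rose by 0.78 ± 0.16 (adjusted p 3.31e-05 per the authors' deposited table).

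Among single genes, the collagen-binding anthrax toxin receptor ANTXR1 had the largest fall outside GABPB1 among called entries with a mean of at least 100 (-4.86 ± 0.28, adjusted p 2.17e-65 per the authors' deposited table). It was followed by DOCK10, an activator of small GTPases, and TENM2, an adhesion protein, at -4.06 ± 0.63 and -3.88 ± 0.80 per the authors' deposited table (adjusted p 9.32e-09 and 2.57e-05). MINPP1, an inositol phosphatase of the endoplasmic reticulum, fell by 2.46 ± 0.26, and TUSC3, of the oligosaccharyl transferase, by 2.00 ± 0.23 in log2 units, per the authors' deposited table (adjusted p 1.36e-18 and 7.99e-16). Upward, RAB27B, a secretory-vesicle GTPase, had 3.92 ± 0.94 and SPOCD1, known from piRNA-directed silencing in the germline, 3.63 ± 0.75 per the authors' deposited table (adjusted p 0.000344 and 2.51e-05). LIPT1, which attaches lipoate to mitochondrial enzymes, rose by 1.66 ± 0.18, and BTG1, an antiproliferative factor, by 1.27 ± 0.16 per the authors' deposited table (adjusted p 6.59e-17 and 2.31e-13).

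A few abundant genes had a very large SE. Of 7670 entries with a mean of at least 1000, 6 had an SE over 1, against a median of 0.15. EPHA7, an ephrin receptor, had 0.25 ± 1.53 at a mean of 1558, and ALDH1A1, a retinaldehyde dehydrogenase, -0.86 ± 1.46 at 3312 per the authors' deposited table. PRICKLE1, of planar cell polarity, had -3.15 ± 1.38 and SEMA3E, a guidance ligand, 0.02 ± 1.20 per the authors' deposited table (adjusted p 0.0657 and 0.993). Such an SE at such a mean goes with wide differences between libraries of a group. Residual ribosomal RNA varied too: RNA28S5 had a mean of 58484 and -1.70 ± 1.13 (adjusted p 0.253) per the authors' deposited table.

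Calls were uneven across chromosomes. The share called lower ran from 6.36% of 236 placed entries on chromosome 13 to 22.7% of 361 on chromosome 20, and the share called higher from 9.14% on chromosome 20 to 24.1% of 411 on chromosome 14. The part of chromosome copy number in clones was not tested.

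The bladder label was checked with markers. Of 19 luminal urothelium markers 9 were in the table, and UPK2, UPK3A, KRT20, CDH1 and EPCAM were not in it. Of 18 basal markers 2 were in it, CD44 and EGFR, and KRT5, KRT14 and TP63 were not in it. Of 15 mesenchymal markers 13 were in it, led by VIM (mean 113393, log2 change -0.14 ± 0.14, adjusted p 0.465 per the authors' deposited table). Of the 9 luminal markers 4 were higher and 1 lower. PPARG and KRT7 were higher at means of 990 and 133 (1.15 ± 0.32 and 0.93 ± 0.30 per the authors' deposited table, adjusted p 0.00256 and 0.00927), and KRT18, a keratin, was lower at a mean of 8029 (-0.67 ± 0.20, adjusted p 0.00439 per the authors' deposited table). Of the 13 mesenchymal markers 4 were higher and 1 lower. ZEB1, a repressor of epithelial genes, was higher (0.88 ± 0.20, adjusted p 9.42e-05), and SPARC, a matrix protein, was the 1 that was lower (-0.68 ± 0.18, adjusted p 0.00113), per the authors' deposited table. Of 12 melanocyte markers 6 were in the table, with 2 higher, MITF among them, 1 lower and a median log2 change of 1.14. Of 15 leukocyte markers 3 were in the table, 2 higher and 0 lower, and PTPRC was not in it. CD68, which is also a lysosomal protein, rose by 1.29 ± 0.14 at a mean of 7270 (adjusted p 1e-16) per the authors' deposited table.

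The A-375 total knockout gave the nearest comparison, from a melanoma line with no library in common. Its groups held 4 B1KO libraries from 4 clones and 8 B1X2KO libraries from 5 clones. Controls were 4 ROSA26 libraries from 3 clones and 2 parental libraries, and which of them were fitted is not known. Some A-375 clones gave more than 1 library. Whether the fit took these as independent is not known, and if it did, the A-375 SE is too small. Over 12620 genes in both tables, the UM-UC-3 change lay above the A-375 change for 799 genes (6.33%) and below it for 520 (4.12%), by a normal test of the difference with Benjamini-Hochberg adjustment under 0.05. The balance depends on the scaling: with both lines centred on their medians, 564 genes lay above and 764 below, which took the share above from 60.6% to 42.5% of the calls. The authors' SE of each line enters that test. Respiratory chain lists lay below: 10 of 35 complex I subunits, 6 of 12 complex IV subunits and 6 of 21 ATP synthase genes differed downward, and 0 upward. With centring these became 15, 9 and 11, again with 0 upward. USMG5 differed by -1.38 (adjusted p 1.13e-05), and NDUFC2 differed too (adjusted p 5.24e-05), since both were above 0 in A-375 (0.30 ± 0.20 and 0.24 ± 0.13 per the authors' deposited table). In A-375 0 of 21 ATP synthase genes were called lower, where 5.79% of the 12620 genes were.

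Some proteasome and ribosome genes lay below A-375 too. Of 32 proteasome genes 9 differed downward, led by PSMB1 (difference -0.94, adjusted p 3.44e-06), and of 32 small-subunit ribosomal proteins 9 differed downward. Of 46 large-subunit ribosomal proteins 3 did, close to the 4.12% over all genes (10 with centring). These lists hold short genes too. Their median longest transcript was 1580.5 bases for the proteasome, 1149.5 for the large and 1221.5 for the small ribosomal subunit. The part of transcript length in the differences between the lines was not tested. Targets of p53 separated the lines: 9 of 27 differed downward and 0 upward, and 18 were called higher in A-375 against 3 in UM-UC-3, where 4.59% and 17.0% of all genes were. BAX, a killer protein of the mitochondrial pathway, and DDB2, a damage sensor, differed by -1.13 and -1.34 (adjusted p 0.000324 and 0.000161).

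In the other direction, regulators of mitochondrial biogenesis (5 of 15 upward), ERK pathway genes (6 of 30) and centrosome genes (5 of 60) had members above A-375 and 0 downward. The centrosome share is close to the 6.33% over all genes. With centring the counts above were 5, 4 and 5, and each list had 1 downward. CREB1 differed by 1.10 (adjusted p 9.98e-05), and DUSP4 by 1.68 and SPRY4, another feedback inhibitor, by 2.22 (adjusted p 0.0028 and 0.00234). The endoplasmic reticulum list had 3 of 29 upward, HSPA5 (1.04), DNAJB9 (1.33) and SEL1L (0.81), with adjusted p of 0.0217, 0.0192 and 0.0159. Few replication genes differed between the lines, with 0 of 26 licensing genes and 1 of 36 fork genes past the test (0 and 3 with centring), and their medians were below 0 in both (-0.55 and -0.58 in A-375). A p that misses the threshold does not show that the lines respond alike.

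**Figure D5:**
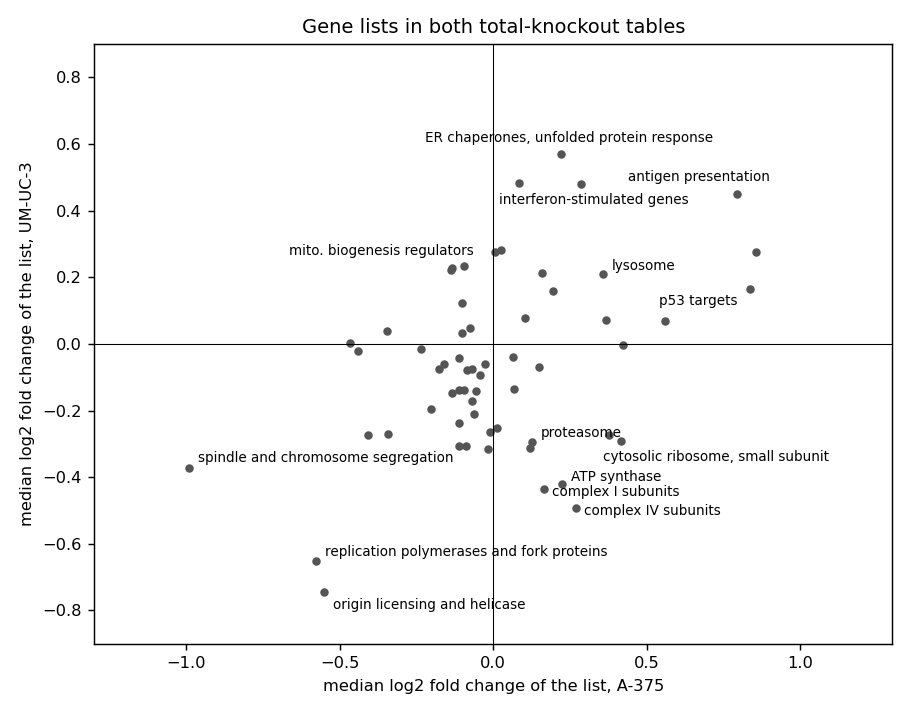
Median log2 fold change of each gene list with at least 8 genes in both tables, in A-375 (x) and UM-UC-3 (y). Lists of complex I and IV subunits, ATP synthase, proteasome and cytosolic ribosome lie below 0 in UM-UC-3 and above 0 in A-375, replication lists below 0 in both, and p53 targets at 0.83 in A-375 and 0.16 in UM-UC-3.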

How the data were processed

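RNA of 33 UM-UC-3 and A-375 libraries was sequenced with a stranded mRNA kit, per the labels' protocols. The submitters' processing notes list HISAT2, SAMtools, StringTie, DESeq2 and hg38 and give no versions. The authors deposited DESeq2 output per gene: a signal column (mean normalized count over libraries), log2 columns (knockout over control, with standard errors), a score column (Wald statistic), and p-value columns (p, Benjamini-Hochberg adjusted p and q-value), per the file headers. Recomputed Wald statistics and adjusted p-values matched the deposited ones within 5.06e-08 and 6.39e-07. The sources used here do not give control libraries, design formula, annotation or use of strand. Depth per sample is unknown. Of the entries, 20 names had become dates and were tested but not named.

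Calls are the authors' adjusted p under 0.05. Genes, lists and tests were chosen with earlier results of these data known. Named genes were all GABP entries; the 20 called each way with the smallest adjusted p (mean at least 100, at least 2-fold); the 10 with the largest change; the 8 with the largest mean; per list up to 6 called members by adjusted p and the uncalled member with the highest mean; the 8 with the largest standard error; and the 8 each way by difference from A-375. Some were left out, and members of a list difference or of a count of 6 or fewer were named after their values were seen. Differences between lines, in 12620 genes, were divided by the root of the summed squared standard errors and given a normal p, a step tested on simulated data. Places are from GENCODE 29 (12515 entries placed), promoters from RefSeq GRCh38.p14. Alternatives changed the threshold, adjustment, minimum mean, centring, standard errors and motif. Python 3.11.15, pandas 2.3.3, numpy 2.4.6, scipy 1.17.1 and matplotlib 3.10.9 were used.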

Additional observations from a re-analysis of the deposited data

Results flagged for a closer look

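Each gene here is among the 8 on either side with the smallest adjusted p for the difference between the UM-UC-3 and A-375 changes, taken as UM-UC-3 minus A-375 in log2 units with a normal test of the difference and Benjamini-Hochberg adjustment.

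Above 0, ZCCHC24 differed by 2.24 (adjusted p 2.93e-08), with a rise in UM-UC-3 (1.33 ± 0.21) and a fall in A-375 (-0.90 ± 0.25) per the authors' deposited table. DNAJC12, an HSP70 co-chaperone, differed by 5.89, UAP1L1, an enzyme of sugar nucleotide synthesis, by 1.73 and MOSPD2, an endoplasmic reticulum contact protein, by 2.02. The adhesion gene NCAM2 differed by 2.27 and the centriole gene CNTRL by 1.96, and both were called lower in A-375 and not called in UM-UC-3. TMEM110 differed by 24.76 and the read-through name SERF2-C15ORF63 by 23.89, where a group near 0 gives the size no fold meaning.

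Below 0, the myosin light chain MYL6 differed by -1.59 (adjusted p 7.91e-10), with -0.68 ± 0.14 in UM-UC-3 and 0.91 ± 0.16 in A-375 per the authors' deposited table. LGALS1, a galectin, differed by -1.67, the proteoglycan GPC1 by -1.96 and the RNA polymerase subunit POLR2L by -1.78, and these too were called lower in UM-UC-3 and higher in A-375. ANTXR1 differed by -3.08 and was called lower in both lines. GALNT18, a glycosyltransferase, differed by -2.14, and CD163L1, a scavenger receptor relative, by -4.43, with a rise in A-375. TSEN34, of the tRNA splicing endonuclease, differed by -4.47, with -3.49 ± 0.50 in UM-UC-3 per the authors' deposited table. In A-375 it was not called (0.99 ± 0.53, adjusted p 0.223 per the authors' deposited table), at a low mean of 19.2.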

How the results depend on the processing

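No paired analysis was possible because the deposited table holds no value per library, and for the same reason no library could be left out in turn. With a change beyond 0.5 log2 units tested instead of beyond 0, 194 entries were higher and 134 lower, since larger changes are asked for. With every UM-UC-3 standard error taken 1.5 times larger, 550 were higher and 509 lower. Differences from A-375 then numbered 169 above and 127 below, with the A-375 standard errors left as the authors gave them. Of the 169 genes named, 29 lost their call under that setting, and 102 of 128 list counts moved. Calls by the authors' q-value numbered 3015 higher and 2496 lower. Centring on the median gave 2037 higher and 2106 lower, which took the higher share of calls from 54.5% to 49.2%; among named genes ELK4 lost its call (adjusted p 0.0713) and DDB2 became called lower (adjusted p 0.0406). With a minimum mean of 100, 404 of 616 higher calls and 229 of 279 lower calls of at least 2-fold were left. The higher side thus lost more calls with the low-mean entries.

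The shorter motif CCGGAAG was found in 36.0% of lower and 15.9% of higher genes. From 100 bases before to 50 after the start, CCGGAAGT was found in 15.5% and 4.76%. Among genes with 1 window, an alternative chosen after seeing the data, the shares were 17.4% and 6.59%. No called change of a named gene reversed, but centring turned the balance of higher and lower calls, and that of differences from A-375 (564 above, 764 below). Unknown depth per library limits the precision of low-mean genes to their standard errors.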
